A study of Mus musculus with 8 samples.

Results

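Heat shock chaperones are the proteins that hold, fold and release other proteins in the cytosol and in mitochondria, and 10 of their genes were read here across mouse liver samples treated with vehicle or carbon tetrachloride (CCl4). The genes were Hspa1a, Hspa1b, Hspa8, Hspb1, Hsp90aa1, Hsph1, Dnajb1, Hspd1, Hspe1 and Bag3, and their probes were taken by gene symbol from the platform annotation, without use of the measured values. The genes themselves, and the other gene lists used below, were chosen with earlier results of these data known. Of the 10 genes, 9 had at least 1 probe, with 12 probes in all among the 25697 on the array, and Hspa1b was not analysed here. After a filter on detection, 10 of these probes and 8 of these genes were tested among 10128 probes and 7257 genes.

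Total RNA was measured on Illumina bead arrays, 1 array per sample, from liver of Balb/c mice 2 months old. The 4 groups were wild type given vehicle (n = 1), IL-4/IL-13-/- mice given vehicle (n = 1), wild type given CCl4 (n = 3) and IL-4/IL-13-/- mice given CCl4 (n = 3). The IL-4/IL-13-/- mice lack the cytokines interleukin-4 and interleukin-13, and they are called the knockout in what follows. In hepatocytes, cytochrome P450 enzymes convert CCl4, a solvent, to a radical that damages lipids and proteins and kills cells around the central vein. The labels read here give no dose, route or time for CCl4, and they do not state whether each array is a mouse of its own, so a p-value here speaks only of the spread among these arrays, part or all of which may be technical.

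In an unstressed cell, the constitutive Hsp70 (Hspa8) and Hsp90 proteins assist folding and keep heat shock factor 1 inactive. When misfolded proteins accumulate, heat shock factor 1 forms a trimer, binds inverted repeats of the unit GAA in promoters, and switches on inducible chaperones such as Hspa1a, Dnajb1, Hsph1, Hspb1 and Bag3. The mitochondrial chaperonin Hspd1 (Hsp60) and its lid Hspe1 (Hsp10) fold proteins imported into the matrix, and their genes lie head to head.

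Promoter stretches are printed first, since the inverted repeat is the sequence feature that defines the family's best known regulation. The windows were 250 bases before to 50 bases after each start in RefSeq (GRCm38.p6). They were searched on both strands for the 2-unit repeats GAANNTTC and TTCNNGAA, which overlap in longer runs, and for the 3-unit repeats TTCNNGAANNTTC and GAANNTTCNNGAA. The table held windows for 8 of the 10 genes, 11 windows in all; Hspa8 and Hsp90aa1 are named only. A 2-unit repeat was found in 8 of the 11 windows and in 15.1% of all 32851 windows, and a 3-unit repeat in 4 of the 11 and in 0.603% of all. These windows are not all separate. The pair of Hsph1 windows overlap and hold the same repeats, and an Hspd1 window and the Hspe1 window share 1 run. Both counts of listed windows therefore count some repeats more than once. Neither repeat was found in the pair of Dnajb1 windows. The stretches are given for the genes with the most repeats, all genes tied for the last place included, 5′ to 3′ on the gene's strand, with the repeats in capitals:
Hspe1: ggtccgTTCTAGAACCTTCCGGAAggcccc
Hspd1: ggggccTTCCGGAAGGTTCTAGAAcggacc
Hsph1, before the start: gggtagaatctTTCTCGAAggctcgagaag
Hsph1, after the start: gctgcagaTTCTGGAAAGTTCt
Hspb1: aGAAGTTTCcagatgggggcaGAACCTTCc
Hspa1a: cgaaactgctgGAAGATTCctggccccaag
Hspa1b: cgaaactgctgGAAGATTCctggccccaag
Bag3: ggatgggaccaGAAGTTTC

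The Hspe1 and Hspd1 lines are the same 30 bases, chr1:55088053-55088082, read from the plus and the minus strand. The run of capitals holds 3 overlapping 2-unit repeats and lies at positions -89 to -72 from the Hspe1 start and at -144 to -127 from the Hspd1 start whose window holds it; the window of another Hspd1 start held none. In the RefSeq table the Hspd1 and Hspe1 genes share 96 bases. The Hspa1a stretch (chr17:34972242-34972271, minus strand) and the Hspa1b stretch (chr17:34959324-34959353, minus strand) are letter for letter the same, and their 300-base windows were 98.7% identical. These near-copies lie 10120 bases apart, so a probe for either could also read the other. The Hsph1 stretch before the start (chr5:149636351-149636380, minus strand) holds 1 repeat, and that after the start (chr5:149636287-149636308, minus strand) holds 2 overlapping repeats in a 3-unit run. The Hspb1 stretch (chr5:135887801-135887830, plus strand) holds 2 separate repeats. The Bag3 repeat (chr7:128523614-128523632, plus strand) lies after the start. A match is a description of the letters, and no binding was measured.

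Across the array, raw median intensities ran from 60.9 to 76.9, and between 8899 and 9821 probes were detected on an array, which means here a detection p-value under 0.01. Neither targeted cytokine gene was detected on any of the 8 arrays (lowest detection p 0.272 for Il4 and 0.0602 for Il13, 1 probe each), so these probes did not check the genotype labels. Of the hepatocyte markers, Apoa1, Ttr and Serpina1a were detected on 8 of 8 arrays, while the Alb probe was detected on 4 and the Fgb and Tat probes on 0, so an undetected probe cannot be read as an absent transcript. Values below are normalized log2 intensities, where 1 unit is a doubling, and differences come from limma with Benjamini-Hochberg adjustment over 7257 genes and a threshold of 0.05. Levels of different probes have no common scale, so only their changes between arrays are read.

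After CCl4, averaged over the genotypes, 2 of the 8 tested chaperone genes were called higher than with vehicle, and 0 were called lower. They were Hsp90aa1, the stress-inducible cytosolic Hsp90, and Bag3, a co-chaperone that releases substrates from Hsp70 and steers them to autophagy. Over all genes 37.5% were called, 18.9% higher and 18.6% lower (1707 genes higher and 844 lower with the deposited values, which were not scaled between arrays), so a count of 2 of 8 is close to the background. The median difference of the 8 genes was 0.32 on the log2 scale, against -0.019 over all genes. At an unadjusted p under 0.05, 3 of the 8 were counted (Hsp90aa1, Bag3 and Hsph1), against 46.8% of all genes.

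**Figure D1:**
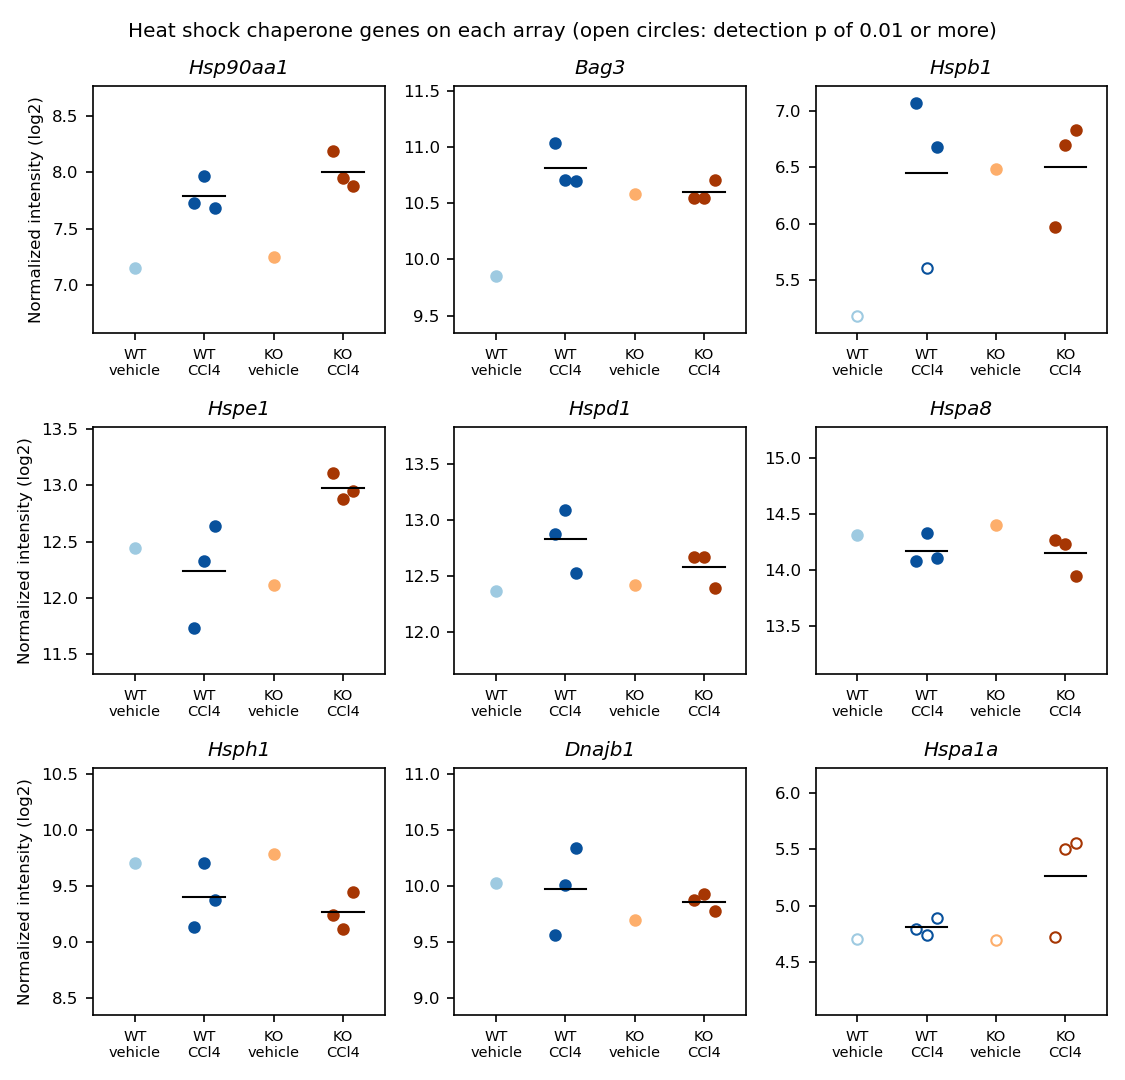
Normalized intensity (log2) of 9 chaperone genes on each of the 8 arrays; points are arrays, open circles are arrays where the probe was not detected, and lines are means of 3 CCl4 arrays. Each panel spans the same number of log2 units. All 6 CCl4 points of Hsp90aa1 lie above both vehicle points, and all 3 knockout CCl4 points of Hspe1 lie above the other 5 points.

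Hsp90aa1 had the smallest adjusted p of the 8 genes for CCl4. It read 7.15 on the wild-type vehicle array and 7.25 on the knockout vehicle array, 7.73, 7.97 and 7.68 on the wild-type CCl4 arrays and 8.19, 7.95 and 7.88 on the knockout CCl4 arrays. All 6 CCl4 arrays lay above both vehicle arrays, and the genotypes overlapped after CCl4. The mean difference was 0.70 ± 0.16 (SE), a 1.62-fold increase (adjusted p = 0.00603). It was 0.75 ± 0.23 in the knockout (adjusted p = 0.032) and 0.64 ± 0.23 in wild type, which missed the threshold (adjusted p = 0.0622). The responses of the genotypes differed by 0.11 (95% confidence interval -0.59 to 0.82). The knockout call was lost without knockout CCl4 replicate 1 (adjusted p = 0.0853) or 2 (adjusted p = 0.0606). Without the knockout vehicle array, the mean rests on wild type alone and was not called. A further Hsp90aa1 probe was detected on no array and was not tested, so the response rests on 1 probe.

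Bag3 was called as well, with a larger difference in wild type than in the knockout. It read 9.85 on the wild-type vehicle array and 11.04, 10.71 and 10.70 on the wild-type CCl4 arrays, while the knockout read 10.58 with vehicle and 10.55, 10.55 and 10.71 with CCl4. The wild-type vehicle array was the lowest of the 8, and the knockout vehicle array lay within the range of the knockout CCl4 arrays. In wild type the difference was 0.97 ± 0.23, 1.95-fold (adjusted p = 0.0102), and in the knockout it was 0.023 ± 0.23 (adjusted p = 0.954). The difference of these responses was -0.94 ± 0.32 (95% confidence interval -1.64 to -0.24), with an unadjusted p of 0.0127 and an adjusted p of 0.152, so a genotype effect on the response was not called. As the mean of both genotypes, Bag3 rose by 0.49 ± 0.16 (adjusted p = 0.0306). That mean call was lost without the wild-type vehicle array, where the difference was 0.02, and without knockout CCl4 replicate 2 (adjusted p = 0.0502) or 3 (adjusted p = 0.0621). The knockout vehicle array stood 0.73 above the wild-type vehicle array. With 1 vehicle array per genotype, a low wild-type vehicle sample and a genotype difference cannot be told apart.

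Hspb1 (Hsp27), a small heat shock protein that holds unfolding proteins and binds actin, gave the most scattered values. It read 5.18 on the wild-type vehicle array, where it was not detected, and 7.07, 5.60 and 6.68 on the wild-type CCl4 arrays, of which replicate 2 was not detected either. The knockout read 6.49 with vehicle and 5.97, 6.70 and 6.83 with CCl4, detected on all 4 arrays. The gene passed the detection filter through the knockout groups. Its residual SD of 0.63 was at percentile 99.2 among all genes, and the genotypes overlapped fully. Since the wild-type vehicle probe was not detected, the wild-type increase is given as at least 1.24-fold, with measured means of 6.45 and 5.18 and an adjusted p of 0.0752. Without wild-type CCl4 replicate 2, the bound was 1.67-fold and the gene was called (adjusted p = 0.00399). In the knockout the difference was 0.015 ± 0.48 (adjusted p = 0.986). With only a bound for wild type, no size is given for the difference of the responses, which was not called (adjusted p = 0.325).

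Of the Hsp70 system, Hspa8, Hsph1 and Dnajb1 were called in no comparison. Hspa8, the constitutive cytosolic Hsp70, read 14.31 and 14.40 on the vehicle arrays of wild type and knockout. It read 14.08, 14.33 and 14.11 on the wild-type CCl4 arrays and 14.27, 14.23 and 13.95 on the knockout CCl4 arrays. These groups overlapped, and the mean difference was -0.19 ± 0.16 (95% confidence interval -0.55 to 0.16). In raw intensity this probe read 16100 to 21100, and saturation was not tested.

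A dimmer Hspa8 probe gave another pattern. It read 10.85 on the wild-type vehicle array and 11.10, 11.50 and 11.47 after CCl4, and in the knockout 11.79 with vehicle and 10.83, 11.00 and 11.45 after CCl4. Every wild-type CCl4 array lay above its vehicle array and every knockout CCl4 array below its own. With each probe fitted on its own, 2 of the 10 tested chaperone probes were called for CCl4 against 37.4% of all 10128 probes, 1 in wild type against 24.5%, 1 in the knockout against 26%, 0 between the genotypes against 6.13% and 0 for the difference of the responses against 0.375%. In that fit the responses of the dimmer Hspa8 probe differed by -1.20 ± 0.39 on the log2 scale (adjusted p = 0.141), so this difference was not called. The 2 Hspa8 probes gave differences of opposite sign in wild type, -0.14 and 0.51, and neither was called.

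Hspa1a, the inducible Hsp70, was not detected on any array. Its raw intensity ran from 46.4 to 81.1, and the lowest detection p was 0.0301. Normalized values were 4.70 and 4.69 on the vehicle arrays, 4.79, 4.74 and 4.89 on the wild-type CCl4 arrays and 4.72, 5.50 and 5.56 on the knockout CCl4 arrays. Knockout replicates 2 and 3 were the highest, with detection p-values of 0.0313 and 0.0301, and still missed the threshold. No fold and no test are given.

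Hsph1 (Hsp105), the Hsp110-type partner that exchanges nucleotide on Hsp70, gave lower values with CCl4 that were not called. It read 9.70 and 9.78 on the vehicle arrays of wild type and knockout, 9.13, 9.70 and 9.37 on the wild-type CCl4 arrays and 9.24, 9.12 and 9.45 on the knockout CCl4 arrays. At more decimals no CCl4 array reached a vehicle array, although wild-type CCl4 replicate 2 came level with the wild-type vehicle array at 2 decimals. The mean difference was -0.41 ± 0.18 (unadjusted p = 0.047, adjusted p = 0.102), and without that replicate it was -0.48 and was called (adjusted p = 0.0366). Hsp90aa1 and Hsph1 were the 2 of 8 genes whose CCl4 and vehicle arrays did not overlap, against 38.8% of all genes.

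Dnajb1 (Hsp40), the J protein that delivers clients to Hsp70, read 10.03 and 9.70 on the vehicle arrays of wild type and knockout. With CCl4, wild type read 9.56, 10.01 and 10.34, while the knockout read 9.87, 9.93 and 9.78. The 3 wild-type CCl4 arrays spanned more than all other arrays, with the highest and the lowest value of the 8 among them. The mean difference was 0.05 ± 0.20 (95% confidence interval -0.38 to 0.48).

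In mitochondria, the chaperonin and its lid gave different patterns. Hspd1 read 12.37 on the wild-type vehicle array and 12.42 on the knockout vehicle array, 12.88, 13.09 and 12.53 on the wild-type CCl4 arrays and 12.67, 12.67 and 12.40 on the knockout CCl4 arrays. The genotypes overlapped after CCl4, and the lowest knockout CCl4 array lay at the level of the vehicle arrays. The differences were 0.46 ± 0.25 in wild type (adjusted p = 0.207), 0.16 ± 0.25 in the knockout (adjusted p = 0.676) and -0.25 ± 0.18 between the genotypes after CCl4 (adjusted p = 0.413). A dimmer Hspd1 probe read 8.80 with vehicle and 9.20, 9.57 and 9.01 with CCl4 in wild type, and 9.03 with vehicle and 8.71, 8.79 and 8.90 with CCl4 in the knockout. On that probe all wild-type CCl4 arrays lay above their vehicle array and all knockout CCl4 arrays below theirs. The responses differed by -0.70 ± 0.35 (adjusted p = 0.301), which was not called.

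Hspe1 read 12.44 on the wild-type vehicle array and 12.11 on the knockout vehicle array, 11.73, 12.33 and 12.64 on the wild-type CCl4 arrays and 13.11, 12.88 and 12.95 on the knockout CCl4 arrays. The 3 knockout CCl4 arrays were the highest of the 8, and the wild-type CCl4 arrays lay on both sides of their vehicle array. In the knockout the CCl4 difference was 0.87 ± 0.31, 1.82-fold, and just missed the threshold (adjusted p = 0.0595), and in wild type it was -0.20 ± 0.31 (adjusted p = 0.67). The responses differed by 1.07 ± 0.44 (unadjusted p = 0.0314, adjusted p = 0.211).

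Between the genotypes after CCl4, 0 of the 8 chaperone genes were called with limma, against 6.49% of all genes, and 1 (Hspe1) had an unadjusted p under 0.05, against 25.2% of all genes. Hspe1 was 0.74 ± 0.22 higher in the knockout, 1.68-fold (95% confidence interval 0.27 to 1.22 on the log2 scale, unadjusted p = 0.00556, adjusted p = 0.0649). It ranked 206 of 7257 genes from the highest difference, and was the 1 of 8 genes whose knockout and wild-type CCl4 arrays did not overlap, against 30.3% of all genes. The call depended on the setting, since Hspe1 passed the threshold in 5 of 17 alternatives, among them the raw intensities with quantile normalization (adjusted p = 0.0384) and the fit without wild-type CCl4 replicate 3 (0.95, adjusted p = 0.0255). For the other 7 genes the differences ran from -0.25 for Hspd1 to 0.22 for Hsp90aa1. With the deposited values, which moved the median of all genes by -0.32, these 7 ran from -0.47 for Hsph1 to -0.14 for Hspa8, with Hsp90aa1 at -0.17, and none was called. The dimmer Hspd1 probe gave -0.46 ± 0.18 (adjusted p = 0.14), with all 3 knockout CCl4 arrays below the wild-type ones. For the probes first given, 95% confidence intervals reached no further than -0.65 and 0.57, except for Hspb1 (-0.69 to 0.79). The median of the 8 differences was -0.065, against -0.013 over all genes.

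**Figure D2:**
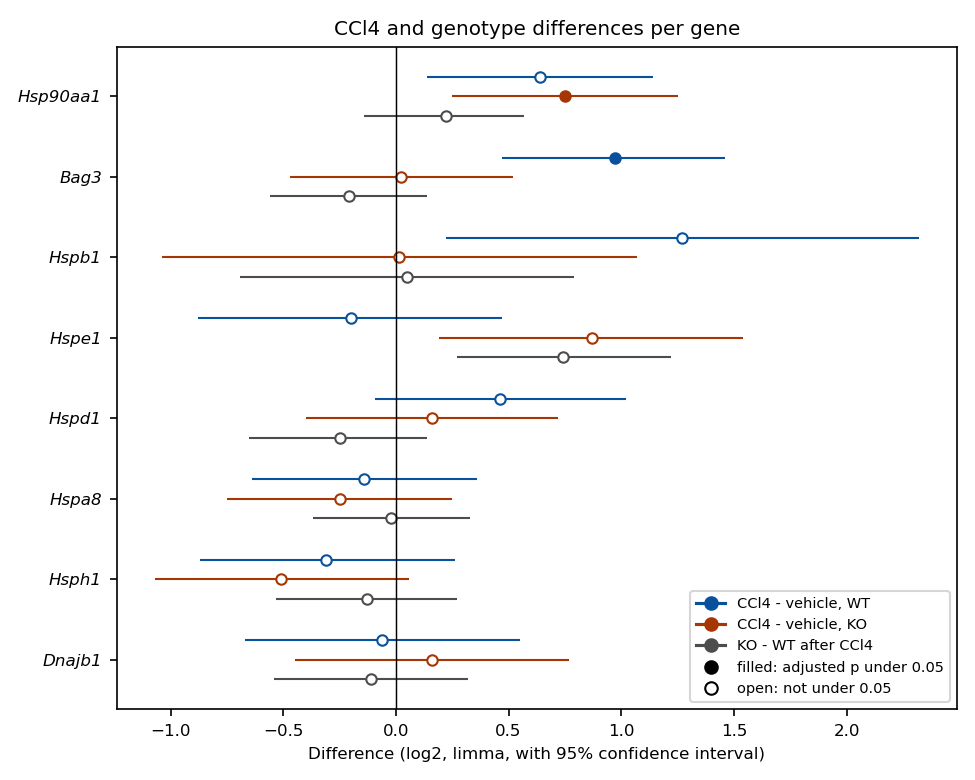
Difference (log2) per gene for CCl4 minus vehicle in wild type (WT) and in the knockout (KO) and for knockout minus wild type after CCl4; bars are 95% confidence intervals from limma, and filled points passed an adjusted p of 0.05. The wild-type Hspb1 point uses the measured value of an array where the probe was not detected. Filled points are Bag3 in wild type and Hsp90aa1 in the knockout. Open points with an interval above 0 are Hspb1 and Hsp90aa1 in wild type, and Hspe1 both for CCl4 in the knockout and between genotypes.

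The separation of Hspe1 from Hspd1 was followed within arrays, a comparison chosen after their values were seen. On the log2 scale, Hspe1 minus Hspd1 was 0.07 and -0.31 on the vehicle arrays of wild type and knockout, -1.15, -0.76 and 0.12 on the wild-type CCl4 arrays and 0.44, 0.21 and 0.55 on the knockout CCl4 arrays. The knockout CCl4 arrays were above all others. The mean was 0.40 ± 0.18 (SD, n = 3) for the knockout and -0.60 ± 0.65 (SD, n = 3) for wild type, a difference of 1.00. A two-sided exact permutation test gave p = 0.1, the smallest p that 3 against 3 arrays can give, so 0.05 could not be reached. With the dimmer Hspd1 probe the values ran from 2.53 to 4.40, so their size and sign depend on the probe. Only the difference between groups is read, which was 1.20 with the same p. It uses the same Hspe1 values, so it is no separate support. Leaving out each CCl4 array in turn gave 0.72 to 1.36. Both genes carry the printed promoter stretch, whose role here was not tested.

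**Figure D3:**
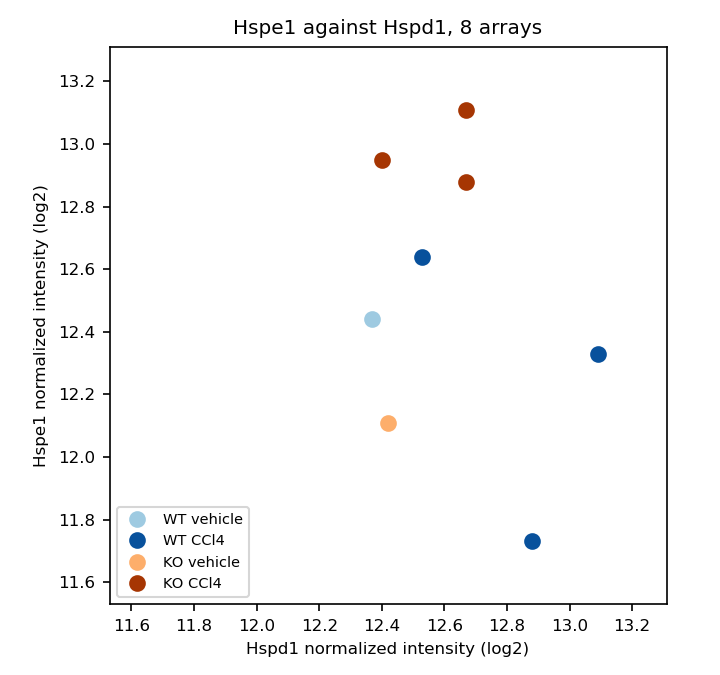
Hspe1 against Hspd1 normalized intensity (log2), 1 point per array, for wild type (WT) and knockout (KO). The 3 knockout CCl4 points have the highest Hspe1 values, at Hspd1 values inside the range of the other arrays, and 2 wild-type CCl4 points, those with the highest Hspd1 values, lie to the lower right.

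In wild type, 1 of the 8 genes (Bag3) was called for CCl4, against 24% of all genes, with an unadjusted count of 3 (Hspb1, Hsp90aa1 and Bag3) against 37.6% of all genes. In the knockout, 1 (Hsp90aa1) was called against 25.8% of all genes, with an unadjusted count of 2 (Hsp90aa1 and Hspe1) against 39.2% of all genes. The means of these comparisons share no array, but their tests share a variance estimated from the CCl4 arrays of both genotypes. For the difference of the responses, 0 of 8 were called with limma against 0.358% of all genes, and 2 had an unadjusted p under 0.05 (Hspe1 and Bag3, of opposite sign), against 19.9% of all genes. In the vehicle pair, which has no replicates and no test, the knockout read at least 1.28-fold higher for Hspb1, which was not detected on the wild-type array (6.49 against 5.18), Bag3 stood 0.73 higher, Hspe1 and Dnajb1 each 0.33 lower, and the other 4 genes differed by at most 0.10; 24% of all genes differed by at least 0.5 there.

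Other chaperone systems of the liver were read from lists and set beside the 8 genes, each with its count out of the genes tested and against 18.9% of all genes called higher and 18.6% called lower after CCl4. In the endoplasmic reticulum (ER), 9 of 14 chaperone genes rose with CCl4 and 0 fell, with a median difference of 0.65. They included the disulfide isomerases Pdia6 (1.25 ± 0.19, adjusted p = 0.000432), Pdia3 (0.93 ± 0.15, adjusted p = 0.000637) and P4hb (0.85 ± 0.17, adjusted p = 0.00255), the ER Hsp70 Hspa5 (0.54, adjusted p = 0.0161) and its J protein Dnajc3 (0.65, adjusted p = 0.013). Of the cytosolic chaperonin TRiC and its partner prefoldin, which fold actin and tubulin, 5 of 10 genes rose and 0 fell, with a median of 0.41. By genotype, 0 of 10 were called in wild type, against 12.4% of all genes called higher, and 4 of 10 were higher in the knockout, against 13%. The difference of the responses was called by limma for 0 of the 10 genes, against 0.358% of all genes. At an unadjusted p under 0.05, 2 were counted in wild type, against 37.6% of all genes, and 5 in the knockout, against 39.2%. For the difference of the responses that count was 3, against 19.9%. The 5 genes that rose as the mean of both genotypes included the TRiC subunits Cct3 (0.62 ± 0.17, adjusted p = 0.014) and Cct6a (0.49 ± 0.15, adjusted p = 0.0222). The prefoldin subunit Pfdn4 (0.71 ± 0.22, adjusted p = 0.0234) was also among the 5, and it differed by 0.09 in wild type and 1.33 in the knockout.

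Partners of the 8 genes moved in both directions. Among other J proteins, 1 of 12 rose and 5 fell, with a median of -0.41. By genotype, 1 was higher and 1 lower in wild type, against 12.4% and 11.6% of all genes. In the knockout 1 was higher and 3 lower, against 13% and 12.8%. Dnajc12 rose as the mean of both genotypes (0.93 ± 0.16, adjusted p = 0.000996). Its difference was 1.56 in the knockout (adjusted p = 0.000822) and 0.31 in wild type, which was not called (adjusted p = 0.35). The lone vehicle arrays read 7.74 for the knockout and 8.3 for wild type. Dnajc12 was also higher in the knockout after CCl4 (0.69 ± 0.16, adjusted p = 0.031). Dnaja1 (adjusted p = 0.00512) and Dnajc2 (-0.57 ± 0.15, adjusted p = 0.0117) fell. Dnaja1 was detected on both vehicle arrays and on no CCl4 array. It passed the filter only through the vehicle groups, where it was high, so its place in these counts is no support for the list's direction. Its fall is given as a bound, at least 1.44-fold for wild type, with the knockout at 1.22-fold or more. Among Hsp90 partners, 2 of 13 rose and 1 fell. The immunophilin Fkbp5, which glucocorticoids induce, rose by 1.41 ± 0.24 (adjusted p = 0.00109) and the myosin co-chaperone Unc45a by 0.59 ± 0.15 (adjusted p = 0.0113), while the co-chaperone p23 (Ptges3) fell by 0.43 (adjusted p = 0.0494).

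Of other Hsp70 genes and exchange factors, 0 of 9 rose (1 at an unadjusted p under 0.05) and 1 fell (Bag4, -0.66 ± 0.18, adjusted p = 0.0121). In the same list, Hspa2 was lower in the knockout after CCl4 (at least 1.58-fold, means of 5.65 and 6.61, adjusted p = 0.0232), where its probe was detected on none of 3 arrays; it passed the filter through the other groups, where it was higher. Among other mitochondrial chaperones and quality-control proteases, 2 of 17 rose and 5 fell, with a median of -0.22. By genotype, 3 of 17 were lower in wild type, against 11.6% of all genes. In the knockout 0 were lower (1 at an unadjusted p under 0.05), against 12.8%. The mitochondrial Hsp90 Trap1 (-0.65 ± 0.16, adjusted p = 0.00909) and the protease subunit Clpp (-0.49 ± 0.15, adjusted p = 0.0254) fell, and the import J protein Dnajc19 rose (0.61 ± 0.16, adjusted p = 0.013). Of the 3 other small heat shock proteins tested (Hspb8, Cryab and Hspb6), 0 were called with limma. Hsf2 (0.00, adjusted p = 0.988) and the heat shock factor binding protein Hsbp1 (0.19, adjusted p = 0.406) were not called either. For CCl4 as the mean of both genotypes, 0 of these 5 genes had an unadjusted p under 0.05. Of the pair Hsf2 and Hsbp1, 1 had such a p in the knockout, against 39.2% of all genes. For the difference of the responses, 1 of the pair did, against 19.9%. Hsf1 was not analysed here. Between the genotypes after CCl4, Dnajc12 and Hspa2 were the only calls in these lists, at background rates of 2.89% higher and 3.6% lower (210 and 261 genes, against 99 and 1659 with the deposited values).

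**Figure D4:**
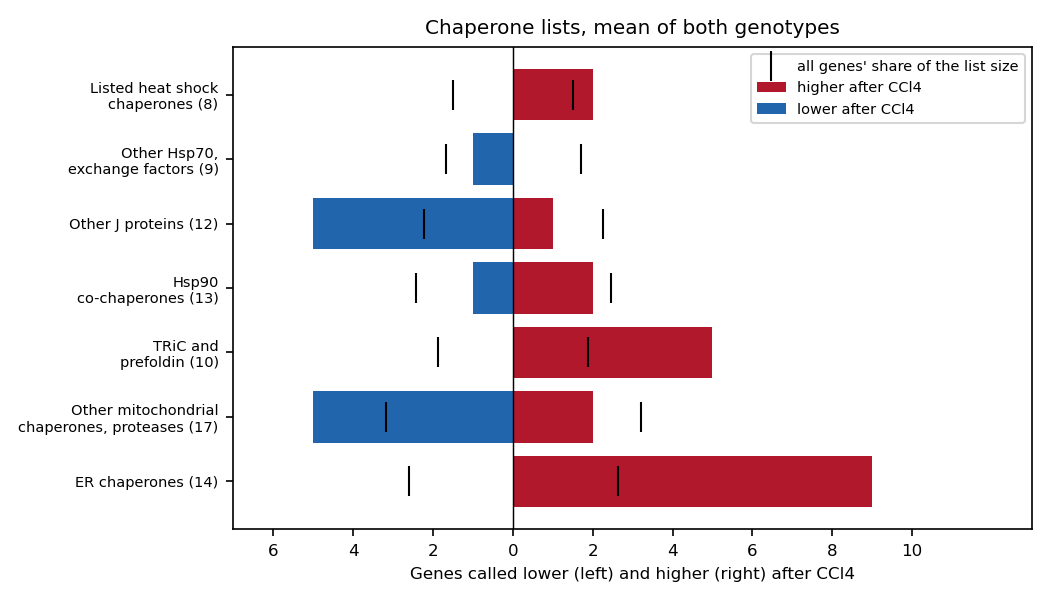
Number of genes called higher (right) and lower (left) after CCl4 as the mean of both genotypes in 7 chaperone lists, with the number of genes tested in brackets; black ticks mark the count each list would have at the share of all genes called. The ER list has 9 genes called higher and 0 lower, TRiC and prefoldin 5 and 0, and the heat shock chaperones 2 and 0.

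Markers of several cell types moved with CCl4. In bulk samples, fewer cells of a type and less RNA per cell cannot be told apart. Counts of tested markers are set against 18.9% of all genes called higher and 18.6% called lower after CCl4. For cell division 5 of 5 rose, for monocytes and macrophages 3 of 7 and for neutrophils 4 of 4. For stellate cells and myofibroblasts 5 of 6 rose with 1 lower (Lrat). For hepatocytes 0 of 7 were called by limma, also 0 at an unadjusted p under 0.05. Endothelial markers had 1 of 5 higher (Lyve1), close to the share of all genes, and erythroid markers 2 of 3 lower. By genotype, 2 of 3 erythroid markers were lower in wild type, against 11.6% of all genes. In the knockout 0 were called, against 12.8%, also 0 at an unadjusted p under 0.05. For the difference of the responses 1 of 3 was called, against 0.358%. Of the 6 stellate markers, 5 were higher in wild type, against 12.4%, and 2 in the knockout, against 13%. Each genotype had 1 vehicle array. Birc5, Plk1, Cdk1, Top2a, Retnlg and Col1a1 were detected on no vehicle array. They passed the filter only through CCl4 groups, where they were high. Lrat and the erythroid marker Slc4a1 passed it only through vehicle groups, where they were high. The place of these genes in the counts is no support for a direction. Summed normalized intensities of a list are on a linear scale, where its brightest probes weigh most, so only their changes between arrays are read. Those of the division list ran from 104 to 110 on the vehicle arrays, from 2470 to 3770 on the wild-type CCl4 arrays and from 1690 to 1990 on the knockout CCl4 arrays (Ccnb2 and Ccna2 detected on none). Those of the macrophage list were 2480 and 3160 on the vehicle arrays, 6570 to 9420 and 6240 to 7750 (Itgam detected on none), and those of the neutrophil list were 534 and 683, 2070 to 2780 and 2000 to 8130 (Ngp, Elane and Cxcr2 detected on none). The stellate list gave 549 and 686, 1940 to 2270 and 1180 to 2050 (Col1a2 and Rgs5 detected on none), and the hepatocyte list 56700 and 71600, 63500 to 70600 and 64700 to 66900. The endothelial list gave 4930 and 3660, 5760 to 6440 and 4430 to 4750 (Kdr and Cdh5 detected on none), and the erythroid list 19000 and 11000, 7600 to 17900 and 6730 to 11400. No T, NK and B cell marker and no cholangiocyte marker passed the filter. Between the genotypes after CCl4, 3 of 5 division markers, 3 of 5 endothelial markers, 1 of 7 macrophage markers (C1qb) and 1 of 6 stellate markers (Col1a1) were lower in the knockout. Over all genes 3.6% were called lower in that comparison and 2.89% higher. Col1a1 was detected on the 3 wild-type CCl4 arrays and on no other, passed the filter through that group alone, and is given as at least 1.57-fold lower (means of 5.14 and 6.61). Of immediate early genes, which stress and growth signals induce within a cell's first response, 6 of 8 rose with CCl4, with summed values of 2980 and 2700, 8010 to 18500 and 5300 to 7540 (Ier2 detected on none), and 1 (Egr1) was lower in the knockout after CCl4. The part of these changes in the values of Hsp90aa1, Bag3 and Hspe1 was not tested.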

How the data were processed

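Per the file headers, the deposited raw table holds a linear bead intensity for each probe on each array and beside it a detection p-value against negative control beads; no earlier step is given in the sources used here. The authors' deposited value table holds the same intensity less a constant for each array and was used as an alternative only. Its scale is linear and its direction that of the raw values; column medians were 12.3 to 20.0, and the reason for the constant is unknown. RNA was labelled as biotinylated cRNA, per the labels' protocols.

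With limma 3.58.1 (R 4.3.3), neqc corrected the background and quantile-normalized the arrays to log2 values, with an offset of 16 and control statistics derived from the detection p-values. A probe was kept if its detection p was under 0.01 throughout at least 1 group, and a gene was read from its brightest kept probe. Symbols came from the platform annotation (1 symbol for 23978 probes, several for 0, none listed for 1719), and 23962 matched RefSeq GRCm38.p6 by Entrez identifier. Which build the probes were designed on is not stated in the sources used here.

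The model of 4 group means used all 8 arrays (lmFit, eBayes); tests were 2-sided and adjusted by Benjamini-Hochberg over 7257 genes at a threshold of 0.05. Its 4 residual degrees of freedom come from the CCl4 arrays, and the model takes the lone vehicle arrays to have the same variance. The number of arrays limits the precision. A bound against an undetected group uses the lowest detected signal on the array. The fit was tested on simulated data with 200 of 7257 genes changed. For the difference of the responses, 4.48% of changes of 1 log2 unit and 93.9% of 2 units were recovered, and 11% of calls were false. An uncalled difference of the responses of about 1 unit can therefore not be read as absent. Changes of 1 unit were recovered at 61.2% for CCl4 in wild type (9.24% of calls false), 40.3% in the knockout (4.04%) and 97% between the genotypes (5.41%). Slide and scan date were not in the headers. Alternatives changed the filter, background correction, scaling, offset, probe rule, variance model and arrays used.

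The 10 genes and all lists were chosen with earlier results of these data known. Named were all 10 genes and, per list, up to 3 genes with the smallest p for CCl4 and up to 2 between the genotypes; other names were chosen after their values were seen.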

Additional observations from a re-analysis of the deposited data

How the results depend on the processing

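Of the single-gene tests under the alternatives, 638 kept their side of the threshold, some small uncalled differences with a change of sign, 18 newly passed it and 8 no longer did, and no called value changed sign. For CCl4 as the mean of both genotypes the count of 2 became 1 with the replicate block and 1 without either vehicle array, and ranged from 1 to 4 when a CCl4 array was left out (4 without wild-type replicate 2, adding Hspb1 and Hsph1). In wild type the count of 1 became 3 with median scaling and 3 with the deposited value table, both adding Hspb1 and Hsp90aa1, and ranged from 1 to 2 when a CCl4 array was left out. In the knockout the count of 1 became 2 with raw quantile normalization, the deposited table, the offset of 50 or the trended robust variance model, each adding Hspe1, became 0 with the replicate block, and ranged from 0 to 2 when a CCl4 array was left out. Between the genotypes the count of 0 became 1 (Hspe1) with raw quantile normalization, median scaling, the offset of 50 or the trended robust model, and ranged from 0 to 1 when a CCl4 array was left out. For the interaction it was 0 in every alternative run. The cause of these changes was not tested.

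Same-numbered CCl4 arrays did not deviate together (correlations -0.122, -0.11 and -0.013), and 0 of 6 arrays correlated best with their own number, so the replicate block, which leaves 2 degrees of freedom, is given here only; it changed the genes called for CCl4 from 1370 higher and 1352 lower to 962 and 955. In the genotype comparison the median of all genes shifted by -0.16 with median scaling (172 higher, 706 lower, against 210 and 261) and by -0.32 with the deposited table (99 and 1659), which differs in its background treatment too. The Hsp90aa1 difference of 0.22 was -0.01 and -0.17 there. For CCl4 the deposited table shifted it by 0.15 (1707 higher, 844 lower), and in wild type by 0.21 (1223 and 468). Without a probe filter 41 genes were higher and 66 lower between the genotypes, and leaving out a CCl4 array gave 41 to 449 higher and 75 to 346 lower. For the interaction, with 13 and 13, the numbers were 1 and 0 without a filter, 38 and 38 with the trended robust model, 25 and 23 with raw quantile normalization, 15 and 26 with median scaling, 16 and 31 with the deposited table, and 9 to 96 and 5 to 34 without a CCl4 array. The alternatives for Hspe1 minus Hspd1 were chosen after seeing the data. The slide as a block was not run, since the headers name no slide. The 1 vehicle array per genotype and the intensities of Hspb1 and Hspa1a near background limit what can be read.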
